A study of Mus musculus with 12 samples.

Results

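The genes described here copy DNA and run the S phase of the cell cycle. They are 46 mouse genes in 9 roles: licensing of replication origins, activation of the helicase, the sliding clamp and single-strand binding, polymerases and primase, the lagging strand, nucleotide supply, control of entry into S phase (G1/S), copying of chromatin, and repair (Brca1). A gene was read through a probe set whose platform annotation gave that gene symbol and no other, and where a gene had several such probe sets the brightest over the 12 samples was used. In this way 45 of the 46 genes were read, of 18193 genes with such a probe set on the array, and Chaf1a was not read here. The probe set of Tyms, the thymidylate synthase gene, lay below the filter on dim probe sets, so 44 members were among the 12598 genes tested.

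Total RNA of central nervous system tissue was measured on Affymetrix arrays in 4 groups of 3 samples each. The groups were wild type at postnatal day 0 (P0), NR3B knockout at P0, wild type at postnatal day 5 (P5) and NR3B knockout at P5. The Grin3b gene encodes NR3B, a subunit of NMDA receptors. The tissue is given as brain in the samples' descriptions and as brain with hindbrain and spinal cord in their titles. The labels give neither the strain, the deleted part of the gene nor the share of each tissue, and whether each numbered sample was a different animal is not stated. The p-values below therefore rest on the scatter among numbered samples, part of which may be technical.

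Replication begins when the origin recognition complex, Cdc6 and Cdt1 load the ring-shaped MCM helicase onto DNA in G1, and geminin (Gmnn) later blocks further loading. Cdc45 and the GINS complex then turn the loaded ring into a working helicase, primase and DNA polymerases copy the strands, and the PCNA clamp holds the polymerases on the template. Many of these genes are known targets of E2F transcription factors, and in the newborn hindbrain the precursors of cerebellar granule cells and of glia are known for dividing after birth.

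The promoters of several members are shown first, because most members rose between the ages in both genotypes and a share of them hold a word that E2F factors are known to bind. The words searched were TTTCCCGC, TTTCGCGC, TTTGCCGC and TTTGGCGC, on both strands, in windows of 300 bases that begin 250 bases before a gene's start (RefSeq, mouse build GRCm38.p6). The table of windows held 38 of the 46 members, and 16 of them (42.1%) had at least 1 such word, against 2.6% of all 27025 genes in the table and 3.29% of its protein-coding genes. The 250 bases before the start are printed for Mcm7 (chr5:138171884-138172133, minus strand), Uhrf1 (chr17:56304063-56304312, plus strand) and Rrm2 (chr12:24708004-24708253, plus strand), each the member of its role (licensing, chromatin copying and nucleotide supply) with the smallest larger p of both age comparisons. Gins1, chosen by the same rule for helicase activation, is named only. Mcm7 and Uhrf1 each have a second start in the table whose 250 upstream bases hold no match, and the start with a match is printed. Capitals mark a match to one of the words, read on either strand, and Rrm2 is shown as a riser without a match.
Mcm7: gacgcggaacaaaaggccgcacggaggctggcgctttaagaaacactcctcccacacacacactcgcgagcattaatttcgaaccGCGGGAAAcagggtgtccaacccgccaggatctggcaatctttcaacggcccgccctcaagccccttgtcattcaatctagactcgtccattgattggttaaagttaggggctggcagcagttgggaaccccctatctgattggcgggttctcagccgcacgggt
Uhrf1: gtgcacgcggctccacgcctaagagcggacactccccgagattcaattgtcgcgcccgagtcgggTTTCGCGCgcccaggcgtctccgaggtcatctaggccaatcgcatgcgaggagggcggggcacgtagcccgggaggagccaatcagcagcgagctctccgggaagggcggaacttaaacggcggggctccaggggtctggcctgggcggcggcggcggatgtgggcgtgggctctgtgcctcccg
Rrm2: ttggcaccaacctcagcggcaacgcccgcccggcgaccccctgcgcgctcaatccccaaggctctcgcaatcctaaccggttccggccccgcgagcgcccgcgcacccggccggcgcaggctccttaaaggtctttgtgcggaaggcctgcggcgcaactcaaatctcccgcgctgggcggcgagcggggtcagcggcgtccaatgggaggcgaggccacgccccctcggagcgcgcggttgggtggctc

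In 4 further members, stretches of 40 bases around the match are shown to set risers beside members that did not rise. They were chosen after the matches were seen. Mcm5 (chr8:75109342-75109381, plus strand) and Mcm6 (chr1:128359790-128359829, minus strand) were higher at P5 in both genotypes, and in each a pair of words on opposite strands overlaps. Orc1 (chr4:108579413-108579452, plus strand) and Dnmt1 (chr9:20952817-20952856, minus strand) passed the test in neither genotype with the probe set used, and each holds a word as well. A second, dim Orc1 probe set did pass in wild type. Dnmt1 has another start in the table of windows, and the window of that start holds no such word.
Mcm5: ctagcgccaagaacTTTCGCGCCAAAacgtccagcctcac
Mcm6: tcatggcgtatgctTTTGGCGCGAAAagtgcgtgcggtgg
Orc1: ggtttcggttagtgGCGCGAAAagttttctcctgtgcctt
Dnmt1: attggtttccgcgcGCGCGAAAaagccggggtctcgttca

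The word was found in 12 of the 22 members in the table that rose in both genotypes (54.5%) and in 4 of the 8 that passed in neither. It was thus present in members of both kinds, and their shares were not compared by a test. The CCAAT box, which the factor NF-Y binds, was found in 24 of the 38 members (63.2%), against 41.1% of all genes. The word TTTGAA, known as the CHR element of many mitotic genes, was found in 4 members (10.5%), against 20.2% of all genes, and in 0 of the 22 that rose in both genotypes. These are matches of letters in a short window, not measured sites.

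Signals are given as deposited, on a linear scale. Differences are on the scale of log2(signal + 16) after the arrays were brought to the same distribution, and they understate the change of dim genes. Every adjusted p comes from limma with Benjamini-Hochberg adjustment over all 12598 genes tested, and a gene is said to rise or fall only where it was under 0.05. In bulk tissue, fewer cells of a type and less RNA per cell cannot be told apart. Median signals lay between 605 and 734 on the 12 arrays, and with 3 arrays per group their number limits the precision. The only Grin3b probe set read 352.6, 197.6 and 304.4 in wild type and 31.4, 38.8 and 96.9 in knockout at P0. At P5 it read 272.9, 167.8 and 154.8 in wild type and 48.5, 39.7 and 45.4 in knockout. All knockout samples were below all wild-type samples, in the direction of the labels, although this dim probe set did not pass in a fit of all 18193 genes (averaged over ages, difference -1.93, SE 0.35, adjusted p = 0.127). P0 wild-type sample 1 stood apart by its 18S ribosomal RNA probe set, which read 7728 there and 48911 to 110512 elsewhere. Within P0 wild type the arrays also fitted the group mean unequally, with estimated array weights of 0.359, 0.189 and 2.45 for samples 1, 2 and 3, and values without them are given where they differ most.

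Between P0 and P5 the replication genes rose as a body in wild type. Of the 44 members tested, 32 were higher at P5, or 72.7%, and 12 did not pass the test. Over all genes tested, 10.8% were higher. No member was lower, while 8.56% of all genes were. The median difference of the members was 0.94 on the log2 scale, against 0.03 for all genes, and single members ranged from -0.42 (Fen1) to 2.65 (Uhrf1). In 36 of the 44 members all P5 samples lay above all P0 samples, which held for 18.4% of all genes.

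In the knockout the same direction was seen. Of the 44 members, 27 were higher at P5 (61.4%), against 5.53% of all genes, and 17 did not pass. Again 0 members were lower, against 4.95% of all genes. The median difference was 0.85, against -0.03 for all genes, with a range from -0.28 (Orc6) to 2.28 (Uhrf1). All P5 samples lay above all P0 samples in 33 members, against 14.6% of all genes. The 26 members that rose in both genotypes make up 81.2% of those that rose in wild type and 96.3% of those that rose in knockout, and they are 59.1% of the members tested, against 4.43% of all genes. Without P5 knockout sample 2, 16 members passed in the knockout, all of them higher. The share of all genes in that fit is not given here, so the lower count is not read as particular to the members.

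**Figure D1:**
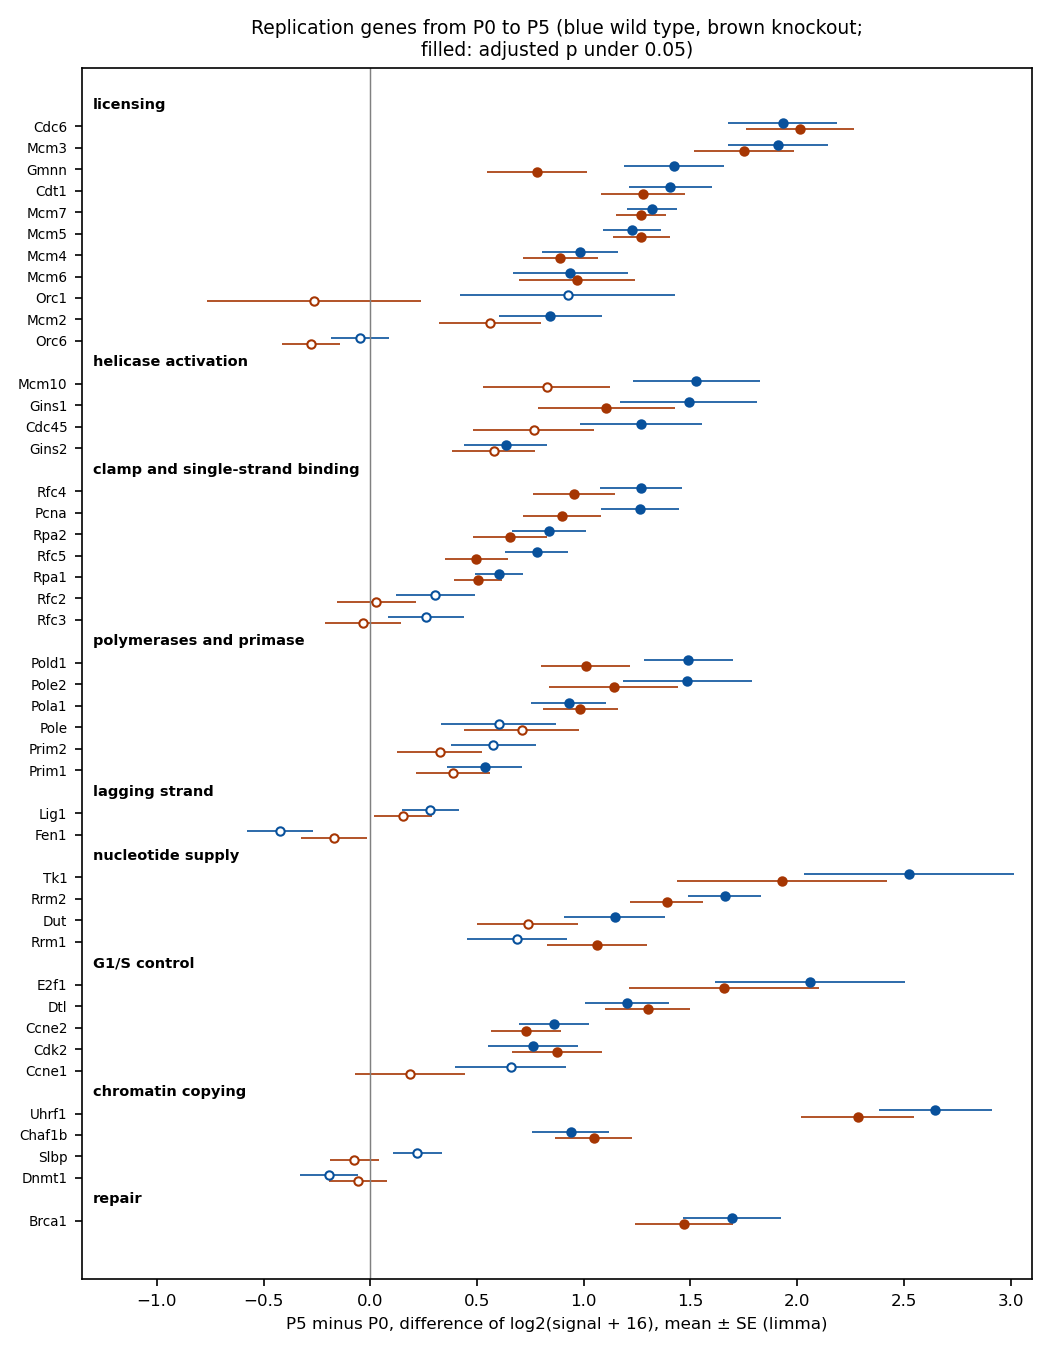
P5 minus P0 for each of the 44 members tested, grouped by role, in wild type (blue) and knockout (brown). Points are differences of log2(signal + 16), bars are the standard errors from limma, and filled points have an adjusted p under 0.05. In wild type 32 points are filled and in knockout 27, all to the right of 0, and Fen1, Orc6 and Dnmt1 lie below 0 in both genotypes.

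Among the licensing genes, 9 of 11 rose in wild type (median 1.23) and 8 of 11 in knockout (median 0.97). Mcm7, a subunit of the MCM helicase, read 7526, 7817 and 8042 in P0 wild type and 18830, 18190 and 20020 in P5 wild type. In the knockout samples it read 7141, 9201 and 8440 at P0 and 17760, 21090 and 21360 at P5. Every P5 sample was above every P0 sample of either genotype. The difference was 1.32 (SE 0.12, 2.50-fold, adjusted p = 1.64e-05) in wild type and 1.27 (SE 0.12, 2.41-fold, adjusted p = 2.55e-05) in knockout.

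Mcm5, another subunit of the ring, read 3861, 3300 and 3334 in P0 wild type and 7600, 8052 and 8634 in P5 wild type. Its knockout signals were 3181, 4272 and 3461 at P0 and 8100, 9216 and 9324 at P5. The ages did not overlap in either genotype. It rose by 1.23 (SE 0.13, 2.34-fold, adjusted p = 6.73e-05) in wild type and by 1.27 (SE 0.13, 2.41-fold, adjusted p = 7.27e-05) in knockout.

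The other subunits differed in how firmly they passed. Mcm3 rose by 1.91 in wild type and 1.75 in knockout, Mcm4 by 0.98 and 0.89, and Mcm6 by 0.94 and 0.97. The Mcm6 call was lost in 5 of 24 alternatives in wild type and in 10 of 24 in knockout. Mcm2 rose by 0.84 (SE 0.24) in wild type (adjusted p = 0.0273), while its difference of 0.56 in knockout did not pass (adjusted p = 0.161). A second Mcm2 probe set gave larger differences, 1.84 in wild type and 1.60 in knockout. It passed in both (adjusted p = 0.000121 and 0.000494 over all probe sets). The size of the Mcm2 difference and its call in knockout therefore depend on the probe set.

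The factors that load the ring differed among themselves. Cdc6, which helps load the helicase, rose by 1.93 (SE 0.25) in wild type and 2.01 (SE 0.25) in knockout, from signals of 211.4 to 430.9 over the P0 samples to 1093 to 1437 over the P5 samples. Cdt1, its partner, rose by 1.41 and 1.28. Gmnn, the inhibitor of Cdt1, rose by 1.42 (SE 0.24, adjusted p = 0.0015) in wild type and by 0.78 (SE 0.24, adjusted p = 0.0497) in knockout, and the knockout call was lost in 13 of 24 alternatives. With the probe sets used, neither origin recognition subunit passed. Orc1 gave 0.93 (SE 0.50, adjusted p = 0.199) in wild type and -0.26 (SE 0.50, adjusted p = 0.802) in knockout, and Orc6 gave -0.05 and -0.28 (SE 0.14 each, adjusted p = 0.833 and 0.227). A second Orc1 probe set, below the filter, gave 2.47 (SE 0.38, adjusted p = 0.00179 over all probe sets) in wild type and 0.67 (SE 0.38, adjusted p = 0.439) in knockout, so the call for Orc1 in wild type depends on the probe set.

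All 4 genes of helicase activation rose in wild type (median 1.38), and 1 of them, Gins1, rose in knockout (median 0.80). The knockout call of Gins1 was lost in 12 of 24 alternative analyses and the wild-type call of Gins2 in 11 of 24. Gins1, a subunit of the GINS complex, read 533.5, 1323 and 659.3 in P0 wild type and 1989, 2385 and 2355 in P5 wild type. Its P0 knockout signals were 737.7, 1055 and 1316, and at P5 they were 1897, 2450 and 2415. P0 wild-type sample 2 and P0 knockout sample 3 were the high samples at P0, and both stayed below every P5 sample. The difference was 1.49 (SE 0.32, adjusted p = 0.00678) in wild type and 1.11 (SE 0.32, adjusted p = 0.0423) in knockout.

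Gins2, of the same complex, moved less. It read 976.6, 1233 and 867.0 in P0 wild type and 1457, 1550 and 1804 in P5 wild type. In knockout the signals were 902.5, 1204 and 1153 at P0 and 1696, 1669 and 1629 at P5. The ages did not overlap in either genotype, with differences of 0.63 (SE 0.19, adjusted p = 0.0370) in wild type and 0.58 (SE 0.19, adjusted p = 0.0773) in knockout. Mcm10 and Cdc45, the other factors of this step, rose by 1.53 and 1.27 in wild type and gave 0.83 (adjusted p = 0.0959) and 0.76 (adjusted p = 0.107) in knockout. That 4 passed in wild type and 1 in knockout does not by itself show a difference between the genotypes. In limma's test of that difference none of the 4 passed, and the smallest p was 0.116, for Mcm10 (adjusted p = 0.743). With 3 samples per group this test could not exclude a smaller rise in knockout. The 95% interval of Mcm10 ran from -1.60 to 0.20.

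In the group of the clamp, its loader and single-strand binding, 5 of 7 genes rose in wild type (median 0.78) and 5 of 7 in knockout (median 0.50). Pcna, the sliding clamp, read 13700, 27190 and 19570 in P0 wild type and 46170, 44060 and 48110 in P5 wild type. Its signals in knockout were 20660, 29810 and 27320 at P0 and 42290, 50680 and 47580 at P5. The P0 wild-type samples ran from 13700 to 27190, and the ages still did not overlap. It rose by 1.26 (SE 0.18, adjusted p = 0.000593) in wild type and by 0.90 (SE 0.18, adjusted p = 0.00702) in knockout.

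Rfc4, a subunit of the clamp loader, read 1394, 2364 and 1493 in P0 wild type and 4078, 3757 and 4503 in P5 wild type. In knockout it read 2330, 2076 and 2447 at P0 and 4529, 4676 and 4360 at P5. P0 wild-type sample 2 read like the P0 knockout samples, and the other P0 wild-type samples lay below them. The age difference was 1.27 (SE 0.19, adjusted p = 0.000830) in wild type and 0.96 (SE 0.19, adjusted p = 0.00666) in knockout.

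The subunits of the clamp loader did not move alike in the test. Rfc5 rose by 0.78 in wild type and by 0.50 (adjusted p = 0.0495) in knockout, a call lost in 12 of 24 alternatives. Rfc2 gave 0.30 and 0.03 and Rfc3 gave 0.26 and -0.04, none of which passed. A second Rfc3 probe set gave 0.70 in wild type (adjusted p = 0.0659 over all probe sets) and -0.01 in knockout. The size of the Rfc3 difference in wild type therefore depends on the probe set. Rpa1 and Rpa2, subunits of the complex that coats single-stranded DNA, rose by 0.60 and 0.84 in wild type and by 0.50 and 0.66 in knockout.

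**Figure D2:**
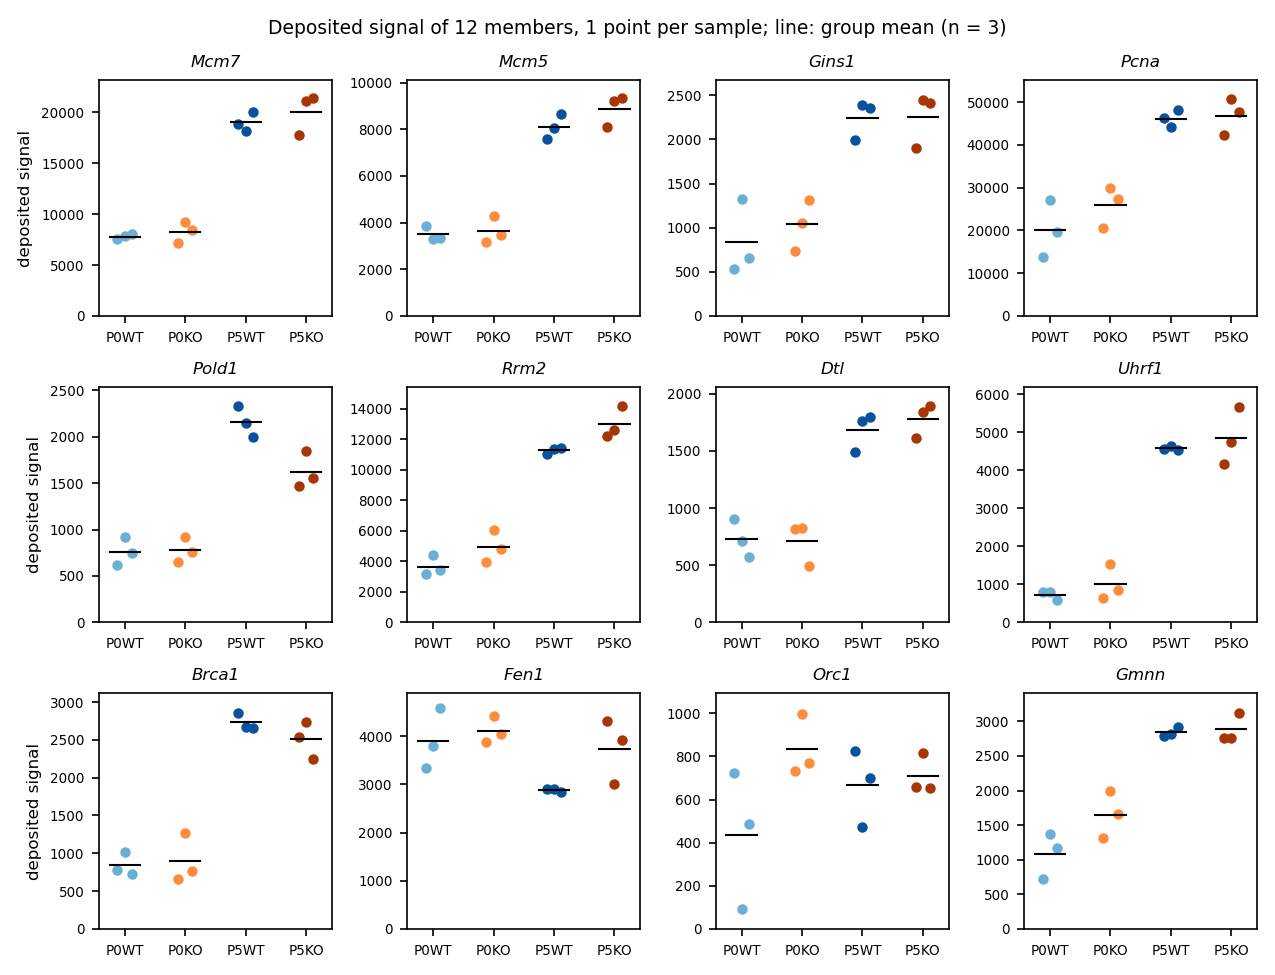
Deposited signal (linear axis from 0) of 12 members in each of the 12 samples, with a line at each group mean (n = 3). In 10 of the panels the P5 signals lie above the P0 signals of the same genotype, as for Mcm7 with 7141 to 9201 at P0 and 17760 to 21360 at P5, while Fen1 and Orc1 do not show this.

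Of the polymerase and primase genes, 4 of 6 rose in wild type (median 0.77) and 3 of 6 in knockout (median 0.85). Pola1, the catalytic subunit of the polymerase that works with primase, read 801.5, 1099 and 874.8 in P0 wild type and 1696, 1732 and 1899 in P5 wild type. Its knockout signals were 1162, 820.2 and 791.6 at P0 and 1758, 2019 and 1838 at P5. No P5 sample came near the P0 range. The difference was 0.93 (SE 0.18, adjusted p = 0.00351) in wild type and 0.98 (SE 0.18, adjusted p = 0.00325) in knockout.

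Pold1, the catalytic subunit of the lagging-strand polymerase, read 616.9, 924.5 and 747.6 in P0 wild type and 2333, 2148 and 1997 in P5 wild type. In the knockout samples it read 649.5, 919.7 and 762.0 at P0 and 1466, 1850 and 1550 at P5. The genotypes read alike at P0, and at P5 all knockout samples were below all wild-type samples. Pold1 rose by 1.49 (SE 0.21, adjusted p = 0.000434) in wild type and by 1.01 (SE 0.21, adjusted p = 0.00741) in knockout. A second Pold1 probe set gave smaller differences, 0.92 in wild type and 0.74 in knockout. It passed in both (adjusted p = 0.0118 and 0.0466 over all probe sets).

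Pole2, a small subunit of the leading-strand polymerase, rose by 1.48 in wild type and 1.14 in knockout, whereas its catalytic subunit Pole gave 0.60 (adjusted p = 0.125) and 0.71 (adjusted p = 0.116). Of the primase genes, Prim1 rose by 0.54 in wild type (adjusted p = 0.0469, lost in 15 of 24 alternatives) and gave 0.39 in knockout. Prim2 gave 0.58 (adjusted p = 0.0565) and 0.33. For both genes all P5 samples lay above all P0 samples in each genotype. A second bright probe set gave 0.77 and 0.59 for Prim1 and 0.65 and 0.72 for Prim2, and none of these passed.

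Neither gene of lagging-strand processing passed in either genotype. Lig1, the ligase that seals the fragments, read 3829, 3114 and 3156 in P0 wild type and 4008, 4286 and 3930 in P5 wild type. Its signals in knockout were 3355, 3978 and 3750 at P0 and 3676, 4535 and 4342 at P5. The ages were apart by a small step in wild type and overlapped in knockout. The difference was 0.28 (SE 0.13, adjusted p = 0.147) in wild type and 0.15 (SE 0.13, adjusted p = 0.535) in knockout.

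Fen1, the nuclease that trims the fragments, read 3339, 3806 and 4579 in P0 wild type and 2896, 2912 and 2834 in P5 wild type. In knockout it read 3880, 4418 and 4040 at P0 and 4320, 3000 and 3917 at P5. It was the only member with all P5 wild-type samples below all P0 wild-type samples. Its difference of -0.42 (SE 0.16, adjusted p = 0.0703) in wild type and -0.17 (SE 0.16, adjusted p = 0.560) in knockout did not pass. A second Fen1 probe set gave the opposite sign, 1.22 (SE 0.18) in wild type and 0.75 (SE 0.18) in knockout, and passed in both (adjusted p = 0.00126 and 0.0338 over all probe sets). The probe set used carries the suffix x in its name, which the platform gives to sets with probes that can match other transcripts. The direction of Fen1 is therefore uncertain here. The sets used for Mcm5, Rrm2, Pold1 and Ccne1 carry this suffix too. Their other sets above the filter, which lack it, also gave positive differences in both genotypes.

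For nucleotide supply, 3 of the 4 genes tested rose in each genotype (median 1.40 in wild type and 1.23 in knockout). Rrm2, the small subunit of ribonucleotide reductase, read 3167, 4384 and 3416 in P0 wild type and 11040, 11360 and 11450 in P5 wild type. Its signals in knockout were 3948, 6065 and 4795 at P0 and 12190, 12590 and 14160 at P5. The ages were far apart in both genotypes. Rrm2 rose by 1.66 (SE 0.17, 3.16-fold, adjusted p = 3.92e-05) in wild type and by 1.39 (SE 0.17, 2.62-fold, adjusted p = 0.000206) in knockout.

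Tk1, the thymidine kinase of dividing cells, read 105.4, 457.4 and 482.5 in P0 wild type and 1855, 1488 and 1973 in P5 wild type. In the knockout samples it read 258.2, 857.3 and 490.8 at P0 and 1799, 1928 and 2065 at P5. P0 wild-type sample 1, the sample with the low 18S signal, was the lowest of all. The difference was 2.52 (SE 0.49, adjusted p = 0.00409) in wild type and 1.93 (SE 0.49, adjusted p = 0.0240) in knockout.

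The partner of Rrm2, the large subunit Rrm1, rose in knockout (1.06, adjusted p = 0.0112) and missed the threshold in wild type (0.69, adjusted p = 0.0542). A second Rrm1 probe set above the filter gave 1.01 (adjusted p = 0.000370 over all probe sets) in wild type and 1.07 (adjusted p = 0.000271) in knockout. Dut, which keeps uracil out of DNA, rose in wild type (1.15, adjusted p = 0.00556) and missed it in knockout (0.74, adjusted p = 0.0642), while a second Dut probe set gave -0.04 in each genotype. Tyms, below the filter, gave 0.81 (SE 0.35) in wild type and 0.40 (SE 0.35) in knockout in a fit with no filter.

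Of the G1/S control genes, 4 of 5 rose in each genotype (median 0.86 in wild type and 0.87 in knockout). Dtl, part of a ubiquitin ligase that removes Cdt1 during S phase, read 901.1, 709.0 and 575.6 in P0 wild type and 1494, 1757 and 1794 in P5 wild type. Its knockout signals were 817.4, 825.4 and 492.0 at P0 and 1612, 1841 and 1894 at P5. The P5 samples were above the P0 samples in both genotypes. Dtl rose by 1.20 (SE 0.20, adjusted p = 0.00148) in wild type and by 1.30 (SE 0.20, adjusted p = 0.00106) in knockout.

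Ccne2, a cyclin E that drives entry into S phase, read 1236, 1196 and 1369 in P0 wild type and 2085, 2204 and 2692 in P5 wild type. In knockout it read 1780, 1146 and 1263 at P0 and 2668, 2230 and 2215 at P5. P0 knockout sample 1 was high for its group and still below the P5 samples. The difference was 0.86 (SE 0.16, adjusted p = 0.00362) in wild type and 0.73 (SE 0.16, adjusted p = 0.0123) in knockout. The other cyclin E, Ccne1, gave 0.66 (adjusted p = 0.0858) and 0.18 (adjusted p = 0.721). Their kinase partner Cdk2 rose by 0.76 and 0.87, and the transcription factor E2f1 by 2.06 (SE 0.44) and 1.66 (SE 0.44). The Cdk2 call was lost in 6 of 23 alternatives in wild type and 4 of 23 in knockout, and the E2f1 call in knockout in 5 of 22. A second E2f1 probe set above the filter gave 1.35 and 1.33 (SE 0.21 each). It passed in both (adjusted p = 0.00221 and 0.00283 over all probe sets), so the size of the E2f1 rise depends on the probe set.

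Among the genes that copy chromatin with the DNA, 2 of 4 rose in each genotype, Uhrf1 and Chaf1b. Uhrf1, which binds hemimethylated DNA behind the fork, read 799.0, 809.4 and 576.9 in P0 wild type and 4549, 4638 and 4537 in P5 wild type. In the knockout samples it read 645.5, 1538 and 846.0 at P0 and 4170, 4731 and 5651 at P5. This was the member with the largest rise in both genotypes. The difference was 2.65 (SE 0.26, 6.26-fold, adjusted p = 3.40e-05) in wild type and 2.28 (SE 0.26, 4.87-fold, adjusted p = 0.000128) in knockout.

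Dnmt1, the methyltransferase that Uhrf1 recruits, gave -0.19 (SE 0.14, adjusted p = 0.328) in wild type and -0.06 (SE 0.14, adjusted p = 0.841) in knockout. Its other 2 probe sets above the filter also gave negative differences in both genotypes, from -0.30 to -0.09. Chaf1b, a subunit of the histone chaperone CAF-1, read 925.2, 942.9 and 867.5 in P0 wild type and 1594, 1859 and 1866 in P5 wild type. Its signals in knockout were 745.1, 985.7 and 885.2 at P0 and 1599, 1879 and 2143 at P5. The P0 and P5 samples stayed apart. The difference was 0.94 (SE 0.18, adjusted p = 0.00390) in wild type and 1.05 (SE 0.18, adjusted p = 0.00265) in knockout. A second, dim Chaf1b probe set below the filter gave -1.19 (SE 0.71) in wild type, and the mean of both probe sets gave -0.13. Slbp, which binds the end of histone messages, gave 0.22 (adjusted p = 0.180) and -0.07 (adjusted p = 0.748).

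Brca1, a repair gene that acts at damaged forks, read 773.8, 1022 and 724.1 in P0 wild type and 2861, 2672 and 2657 in P5 wild type. Its knockout signals were 661.2, 1269 and 759.7 at P0 and 2540, 2740 and 2241 at P5. All P5 samples were well above the P0 samples. Brca1 rose by 1.70 (SE 0.23, adjusted p = 0.000370) in wild type and by 1.47 (SE 0.23, adjusted p = 0.00124) in knockout.

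The brightest probe set was not alone in showing the rise. The 45 members had 105 probe sets, and 37 of those not used lay above the filter, for 26 genes. Of these 37, 34 had the same sign as the probe set used in wild type and 33 in knockout. In a fit of all probe sets, 23 of the 37 passed in wild type and 23 in knockout, all of them higher at P5. Probe sets of a gene read the same RNA and are not replicates.

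**Figure D3:**
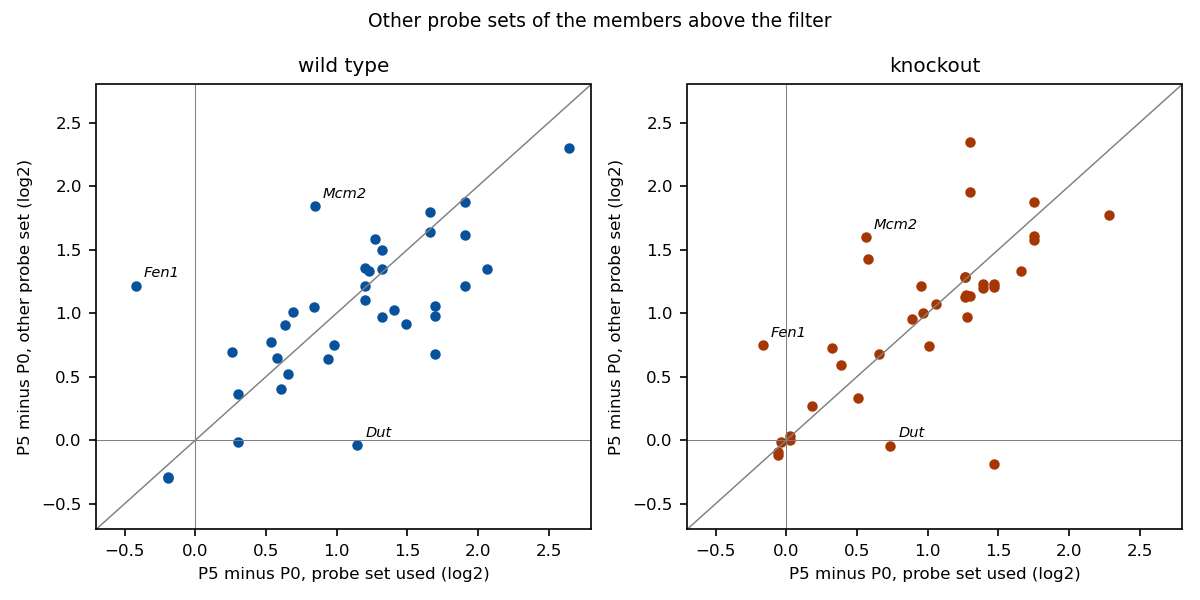
P5 minus P0 (log2) for the 37 other probe sets above the filter, against the probe set used for the same gene, in wild type (left) and knockout (right). The diagonal marks equal differences. Most points lie in the upper right, and Fen1 in the upper left shows the opposite sign, with 1.22 against -0.42 in wild type.

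Other replication genes, from a list that leaves the members out, moved less. Of 34 tested, 12 rose in wild type and 5 in knockout, and none fell (medians 0.39 and 0.34). Those with the smallest p in wild type were Rpa3, a small subunit of the single-strand binding complex (1.89), the RNase H2 subunits Rnaseh2a (1.08) and Rnaseh2b (1.29), and the checkpoint adaptor Clspn (1.02). In knockout Clspn rose by 1.46 (adjusted p = 0.000420), while Rpa3, at 0.92 (adjusted p = 0.103), and both RNase H2 subunits did not pass.

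Of 27 further G1/S, E2F-linked and chromatin copying genes, 16 rose in wild type and 13 in knockout, with medians of 0.80 and 0.62. The D cyclin Ccnd2 rose by 2.82 in wild type and 2.31 in knockout and Ccnd1 by 1.61 and 1.48. Ccna2, the cyclin of S phase and G2, rose by 1.76 and 1.61, and Cdca7, which acts with the chromatin remodeller Hells, by 1.63 and 2.11.

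The genes of mitosis rose throughout: 23 of 23 tested were higher at P5 in wild type and 23 of 23 in knockout, with medians of 1.82 and 1.66. The proliferation marker Mki67 rose by 2.15 in both genotypes, the topoisomerase Top2a by 1.98 and 2.19, the mitotic activator Cdc20 by 2.08 and 1.70, and the centromeric histone Cenpa by 2.04 and 1.71. Their mean level per sample ran from 9.89 to 10.21 in P0 wild type, 9.91 to 10.46 in P0 knockout, 11.81 to 11.92 at P5 in wild type and 11.75 to 11.96 at P5 in knockout. The mean level of the 44 replication genes ran from 10.57 to 10.97, 10.78 to 11.18, 11.76 to 11.83 and 11.71 to 11.88 in the same order. In both lists all P5 samples were above all P0 samples.

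**Figure D4:**
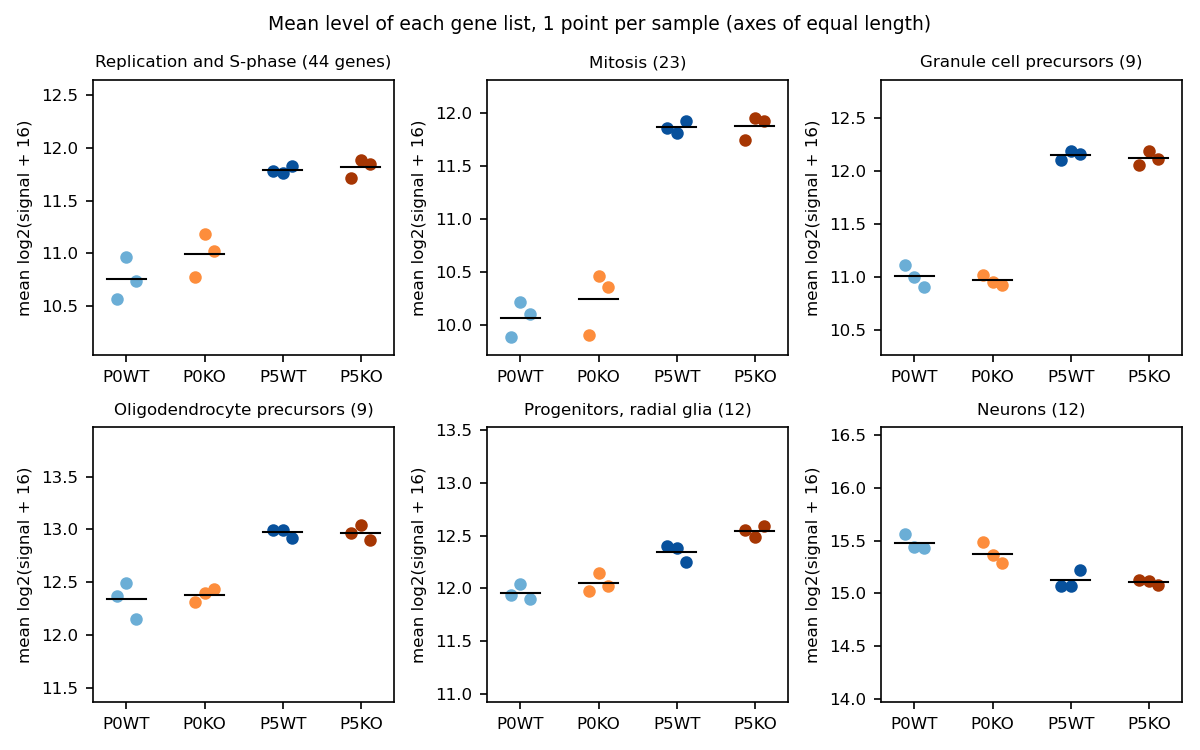
Mean level of 6 gene lists in each of the 12 samples, as the mean of log2(signal + 16) over the genes tested, with a line at each group mean (n = 3) and axes of equal length. All P5 samples lie above all P0 samples in the replication, mitosis, granule cell precursor, oligodendrocyte precursor and progenitor lists. The neuron list has all P5 samples below all P0 samples.

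Markers of several dividing cell types moved with the members. Markers of cerebellar granule cell precursors rose in 6 of 9 genes in wild type and 7 of 9 in knockout (medians 0.94 and 1.05). Among them were Pax6 (2.06 and 2.02), Atoh1, the factor that specifies these cells (2.16 and 1.92), Barhl1 (1.55 and 1.09) and Gli2, an effector of hedgehog signalling (1.62 and 1.94). Their mean level ran from 10.90 to 11.12 in P0 wild type, 10.93 to 11.02 in P0 knockout, 12.11 to 12.19 at P5 in wild type and 12.06 to 12.19 at P5 in knockout.

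Oligodendrocyte precursor markers rose in 7 of 9 genes in wild type and 6 of 9 in knockout (medians 0.62 and 0.54), among them Gpr17 (1.31 and 0.89), Nkx2-2 (0.92 and 0.81) and Sox10 (1.07 and 1.03). Olig1 rose in wild type (0.74) and gave 0.40 in knockout. Their mean level ran from 12.15 to 12.49, 12.31 to 12.44, 12.92 to 13.00 and 12.90 to 13.04 in P0 wild type, P0 knockout, P5 wild type and P5 knockout.

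Markers of neural progenitors and radial glia were mixed: 4 of 12 rose and 1 fell in wild type, and 3 rose in knockout. Gfap, also an astrocyte gene, rose by 1.98 and 2.12 and Pax3 by 0.95 and 1.10. Vim rose in wild type (0.44), and Prom1 fell by 0.54 there (-0.54 in knockout, adjusted p = 0.0533). The list's mean level ran from 11.90 to 12.04, 11.98 to 12.15, 12.25 to 12.40 and 12.48 to 12.59 in the same order of groups.

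Neuron markers went the other way. Of 12, 5 fell and 0 rose in wild type, and 3 fell in knockout (medians -0.34 and -0.26). Dcx, a marker of young neurons, fell by 1.63 in wild type, and its difference in knockout was -0.33 (adjusted p = 0.626). Map2 fell by 0.59, Syt1 by 0.46 and Nefl by 0.37 in wild type, and these did not pass in knockout. The mean level ran from 15.43 to 15.56, 15.29 to 15.48, 15.07 to 15.23 and 15.08 to 15.13 in the same order.

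Cells outside the neural lineages moved too. Microglia markers rose in 6 of 9 genes in wild type and 3 of 9 in knockout, with P2ry12 at 0.99 and 1.22 and Csf1r at 0.52 and 0.53. C1qb and Tyrobp rose in wild type (0.71 and 1.21) and did not pass in knockout. Endothelial markers rose in 4 of 8 and 3 of 8, with Cldn5 at 0.87 and 0.42, Esam at 0.64 and 0.57, Slco1a4 at 0.78 and 0.86 and Tek at 0.54 and 0.46, the last not passing in knockout. Markers of meninges and fibroblasts rose in 6 of 9 and 1 of 9, with Igf2 at 1.49 and 0.55. Igfbp2, Ptgds and Dcn rose in wild type (0.92, 1.20 and 1.26) and did not pass in knockout. Of 3 red blood cell genes tested, 2 rose in wild type, Slc4a1 (2.61) and Alas2 (1.88), and 1 in knockout, Slc4a1 (1.87), while Hbb-b2 passed in neither. The mean levels of these lists in the order P0 wild type, P0 knockout, P5 wild type and P5 knockout ran from 10.45 to 11.36, 11.00 to 11.57, 11.37 to 11.47 and 11.69 to 11.73 for microglia. For endothelium they ran from 10.49 to 10.63, 10.29 to 10.73, 10.88 to 11.10 and 10.87 to 11.08.

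No marker tested read 0 in any sample. The part of any of these cell types in the rise of the replication genes was not tested.

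The comparison of knockout with wild type asks whether loss of NR3B changed these genes at either age. At P0 no member passed, with limma's smallest adjusted p among them at 0.287, against 0.0238% of all genes (3 of 12598) that did. At an unadjusted p under 0.05 there were 7 members and 2033 genes in all. The members' differences leaned upwards, with a median of 0.19 against 0.07 for all genes, and 6 of 44 below 0 against 40.9% of all genes. That median was 0.12 without P0 wild-type sample 1 (10 of 44 below 0), 0.11 without P0 knockout sample 2 (15 of 44 below 0) and 0.33 without P0 knockout sample 1. In 3 members, Orc1, Rfc5 and Slbp, all knockout samples lay above all wild-type samples (6.65% of all genes), and in 0 members below (3.52% of all genes).

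The 3 members with the smallest p at P0 were Gmnn, Orc1 and Rrm2. Gmnn read 716.4, 1372 and 1169 at P0 in wild type and 1308, 1987 and 1662 at P0 in knockout. At P5 it read 2785, 2812 and 2923 in wild type and 2765, 2759 and 3126 in knockout. The genotypes overlapped at both ages. The difference at P0 was 0.68 (SE 0.24, adjusted p = 0.287) and at P5 0.04 (SE 0.24, adjusted p = 1).

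Orc1, the largest subunit of the origin recognition complex, read 723.5, 92.9 and 487.8 at P0 in wild type and 733.6, 996.8 and 769.3 at P0 in knockout. Its P5 signals were 826.6, 470.4 and 701.8 in wild type and 656.3, 814.3 and 651.7 in knockout. P0 wild-type sample 2 was far below the rest, with the lowest signal of any tested member in any sample. The difference at P0 was 1.34 (SE 0.50, adjusted p = 0.290). For Rrm2 the P0 difference was 0.45 (SE 0.17, adjusted p = 0.290), with P0 wild-type sample 2, at 4384, between P0 knockout samples 1 and 3.

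The count at P0 changed with P0 wild-type sample 2. Without it, 9 members were higher in knockout at P0 (Gmnn, Pcna, Dut, Rfc4, Rfc3, Rrm2, Ccne1, Gins1 and Slbp), 0 were lower and the members' median was 0.35. In that fit 21.3% of all genes passed, counted in either direction. The share of all genes that were higher is not given here, so the 9 are not read as particular to the members. With P0 wild-type sample 3 as the group's only sample, Rfc4 alone passed, with 4.51% of all genes. With arrays weighted by how well they fitted their group, 13 members were higher and 1 (Rrm1) lower, with 24.5% of all genes.

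Markers of some other cell types also leaned upwards at P0, while others did not. Markers of meninges and fibroblasts were above 0 in 9 of 9 genes (median 0.67), with mean levels of 12.24 to 12.67 in P0 wild type, and 12.85 to 13.23 in knockout of that age, and 13.04 to 13.36 and 13.26 to 13.36 at P5. Red blood cell genes were above 0 in 3 of 3 (median 1.37), at 8.28 to 9.16 and 9.47 to 10.41 at P0, and 10.11 to 10.81 and 10.60 to 11.28 at P5. Microglia genes were above 0 in 8 of 9 (median 0.52). Neuron genes were above 0 in 5 of 12 (median -0.15) and endothelial genes in 3 of 8 (median -0.03). For oligodendrocyte precursors it was 5 of 9 (median 0.03), beside a median of 0.07 for all genes. None of these genes passed the test at P0, and their part in the members' differences was not tested.

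At P5 the genotypes were closer. No member passed (smallest adjusted p = 1, by limma), against 0.00794% of all genes, and 1 member had an unadjusted p under 0.05, as did 233 genes in all. The median of the members was 0.04, against 0.01 for all genes, and 18 of 44 lay below 0, against 48.4% of all genes. Leaving out 1 sample at a time moved this median between 0.0036 (without P5 knockout sample 3) and 0.10 (without P5 knockout sample 1). In 2 members, Fen1 and Rrm2, all knockout samples were above all wild-type samples (7.68% of all genes), and in 3, Mcm10, Cdc6 and Pold1, all were below (5.25% of all genes). The largest of these were Fen1, at 0.38 (SE 0.16), and Pold1, at -0.39 (SE 0.21). All 44 differences were smaller than 0.5 in size, and for 42 of 44 the 95% interval lay within 1 on either side of 0.

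**Figure D5:**
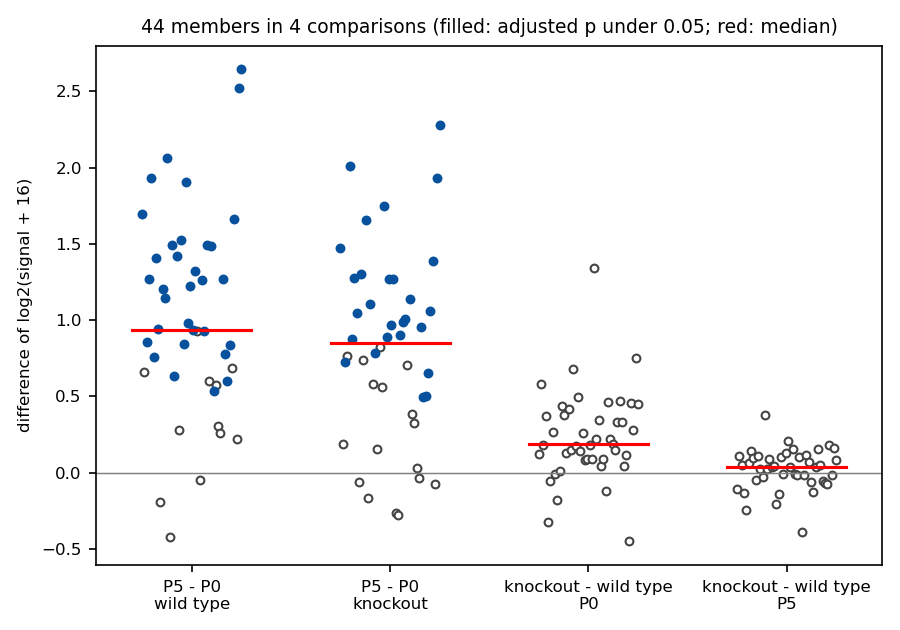
Differences of log2(signal + 16) of the 44 members in the age comparison of each genotype and the genotype comparison at each age. Filled points have an adjusted p under 0.05, and red lines mark medians of 0.94, 0.85, 0.19 and 0.04. The genotype comparisons hold no filled point.

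Averaged over both ages, no member passed either (smallest adjusted p = 0.576, by limma), against 0.0238% of all genes. At an unadjusted p under 0.05 there were 3 members, Rrm2 (0.32, SE 0.12), Fen1 (0.25, SE 0.11) and Rfc4 (0.31, SE 0.14), and 1087 genes in all. The median was 0.12 against 0.04 for all genes. Without P0 wild-type sample 2, Rfc4, Rfc3 and Rrm2 passed, with 5.9% of all genes. With arrays weighted by their fit, Uhrf1, Gmnn, Dut, Cdt1, Rfc4, Rfc3, Rrm2 and Ccne1 were higher and Rrm1 was lower. The share of all genes in that weighted fit is not given here, so these calls are not read as particular to the members.

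The test of whether the age difference itself differed between genotypes called 0 members and 0% of all genes (limma, smallest adjusted p of a member 0.743). No member had an unadjusted p under 0.05 here, and 622 genes in all did. The median of the members was -0.23, against -0.06 for all genes, and 33 of 44 lay below 0, against 57% of all genes. Values below 0 are in the direction of a smaller rise in knockout. The size of this median depended on single P0 samples: leaving out wild-type sample 1 gave -0.12 and sample 2 gave -0.35, and leaving out knockout sample 1 gave -0.33 and sample 2 gave -0.09. The members with the smallest p were Gmnn (-0.64, SE 0.33), Slbp (-0.29, SE 0.16) and Mcm10 (-0.70, SE 0.42). Half-widths of the 95% intervals had a median of 0.599, and 30 of 44 intervals lay within 1 on either side of 0.

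Slbp read 10270, 12820 and 11420 at P0 in wild type and 12740, 13940 and 15170 at P0 in knockout. At P5 it read 13450, 12150 and 13860 in wild type and 13150, 13800 and 12660 in knockout. Read on this scale, P0 wild-type sample 2 was just above P0 knockout sample 1, and after normalization all P0 knockout samples lay above all P0 wild-type samples. Mcm10 read 301.6, 508.9 and 471.5 at P0 in wild type and 388.3, 870.1 and 554.3 at P0 in knockout. Its P5 signals were 1231, 1262 and 1249 in wild type and 865.0, 1160 and 1165 in knockout. At P5 all Mcm10 knockout samples were below all wild-type samples, by a difference of -0.20 (SE 0.30, adjusted p = 1).

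Members varied more within groups at P0 than at P5. Their median within-group SD on the log2 scale was 0.319 in P0 wild type, and 0.313 in knockout of that age, against 0.0816 in P5 wild type, and 0.133 in knockout of that age (n = 3 each). For all genes tested these were 0.269, 0.21, 0.119 and 0.133. At P0 the members of a sample tended to be high or low together. In P0 wild-type samples 1, 2 and 3, 2, 8 and 5 of the 44 members were above their own mean over the 12 samples, and in P0 knockout samples 1, 2 and 3, 5, 16 and 12 were. At P5 between 38 and 43 were.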

How the data were processed

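The authors deposited 1 intensity value per probe set and array on a linear scale, each array scaled by a single factor, as the values show. The summary software was not given in the sources used here. Of 45101 rows, 64 controls were left out, and 34945 of the rest had 1 gene symbol, 932 several and 9160 none. Signals were taken as log2(signal + 16) and quantile-normalized. Genes with a mean under the 40th percentile were left out. All 12 samples entered one model of the 4 group means (limma 3.58.1, R 4.3.3, intensity trend, 8 residual and 5.59 prior degrees of freedom), with Benjamini-Hochberg adjustment and a threshold of 0.05, after the fit was tested on simulated data. The members, the lists and the choice to doubt P0 wild-type samples 1 and 2 were made with earlier results of these data known. Sample values are given for up to 2 members per role with the smallest larger p of both age comparisons and the 3 with the smallest p in each genotype comparison and the interaction, and up to 4 genes with the smallest p in wild type are named per other list. Other members are named with their role. Alternatives were other normalizations, pseudocounts, filters, probe set rules, weights, blocks and sample sets.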

Additional observations from a re-analysis of the deposited data

How the results depend on the processing

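Over 24 alternatives, 22 of the 32 members that rose in wild type and 12 of the 27 in knockout passed wherever they were tested. Of these, 16 and 10 were tested in all 24, while Cdc6, Dtl, E2f1, Mcm10, Pole2 and Tk1 in wild type and Cdc6 and Dtl in knockout were tested in 22 or 23. Over the same alternatives the interaction and the P5 genotype comparison called 0 members in each that could give them (the average and the interaction have no value when only the compared groups are fitted). With the mean of a gene's probe sets, 39 members were above the filter, 20 passed in wild type and 18 in knockout, the wild-type median was 0.7792 and Chaf1b was -0.1276 there; a dim probe set entered its mean. Array weights gave a wild-type median of 1.125, 14 members at P0 between genotypes and 9 in the average, and P0 wild-type sample 3 as the only one of its group gave 1.128 and 1 member at P0, the lone sample being assumed to vary like the other groups. The cause of these was not tested. Leaving out 1 sample at a time, the count ran from 27 to 38 in wild type, 16 to 30 in knockout, 0 to 9 between genotypes at P0 and 0 to 3 in the average, with medians of 0.9227 to 1.083, 0.7019 to 0.9391, 0.1137 to 0.3493 and 0.08449 to 0.166, and the median of the interaction ran from -0.351 to -0.09082. The lowest knockout count was without P5 knockout sample 2 and the highest P0 and average counts without P0 wild-type sample 2. The counts in this section, those of the average included, stand without the share of all genes, so their changes are not read as particular to the members. A replicate block gave 34 members in wild type and 30 in knockout, but the numbers share no source in the labels: 5 of 18 pairs with the same number correlated above 0.1 (from -0.125 to 0.419), and samples correlated best with their own number in 13 of 36 checks. No member fell in any alternative except in wild type, where 2 did with array weights and 1 without P0 wild-type sample 1, without sample 2 or without both.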

Other observations

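Genes that slow or end the cell cycle did not fall while the replication genes rose. Of 12 inhibitor and exit genes tested, 5 rose and 0 fell in wild type and 3 rose and 0 fell in knockout (limma, medians 0.35 and 0.24, beside 0.03 and -0.03 for all genes). Cdkn1b, the inhibitor p27 of cyclin E and Cdk2, rose by 1.46 (SE 0.28) in wild type and 0.98 in knockout, and Cdkn2c, an inhibitor of the D cyclin kinases, by 1.20 (SE 0.28) and 0.94. Btg1, an antiproliferative gene, rose by 0.59 and 0.51, and Gadd45a rose by 1.05 in wild type and gave 0.42 in knockout (adjusted p = 0.376). The list's mean level ran from 11.83 to 12.14 in P0 wild type, 12.07 to 12.28 in P0 knockout, 12.46 to 12.50 in P5 wild type, and 12.47 to 12.59 in knockout of that age, so all P5 samples were above all P0 samples.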
